A study of Mus musculus with 7 samples.

Results

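Vegfa, Bnip3, Pdk1, Ldha, Pgk1, Eno1, Aldoa, Adm, Egln3 and Hk2 are genes that many tissues switch on when oxygen falls, and they were followed here in the brains of newborn mice. The genes were taken by symbol from the deposited table of 55536 genes. All 10 symbols were found, in 11 rows, because Aldoa has a second and very weakly counted row. The mice were C57BL/6 at postnatal day 0, littermates with no treatment, and RNA came from the brain. Controls were wild type (2 males and 2 females). The others were heterozygous for a Setd2 allele carrying R2483H in the SRI domain, written Setd2SRI/wt (1 male and 2 females). Setd2 encodes the enzyme that places the trimethyl mark on a lysine of histone H3 along transcribed genes, and the SRI domain binds RNA polymerase II. There were 7 libraries, each labelled as a separate mouse. Which mice came from which litter is not given, and the p-values cover the spread between these libraries.

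In cells with enough oxygen, prolyl hydroxylases mark the alpha subunits of hypoxia-inducible factor (HIF) for destruction by the VHL ubiquitin ligase. When oxygen falls the alpha subunits persist, pair with ARNT and bind a short DNA core, ACGTG or GCGTG, near their targets. These targets include secreted vascular signals, a feedback hydroxylase, a mitophagy receptor, a brake on pyruvate oxidation and most enzymes of glycolysis. Birth moves the brain from the low oxygen of the womb to air. The levels below were measured at a single age, so no change across birth was measured.

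The upstream sequences of 4 of the genes show the HIF core in context. Pdk1 is shown because it was the gene of the set whose genotype groups did not overlap, and Bnip3, Pgk1 and Ldha because they are textbook HIF targets of differing roles. Each line gives the 250 bases before 1 start site of the gene in RefSeq (GRCm38.p6, the same assembly as mm10), read 5′ to 3′ on the strand of the gene, with every ACGTG or GCGTG on either strand in capitals. On the opposite strand these cores read CACGT and CACGC.
Pdk1 (chr2:71872974-71873223, plus strand): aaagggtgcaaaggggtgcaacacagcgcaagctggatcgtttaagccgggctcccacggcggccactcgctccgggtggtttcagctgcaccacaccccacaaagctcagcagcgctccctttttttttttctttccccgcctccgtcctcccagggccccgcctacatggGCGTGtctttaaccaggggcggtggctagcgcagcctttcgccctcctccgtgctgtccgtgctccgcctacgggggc
Bnip3 (chr7:138909507-138909756, minus strand): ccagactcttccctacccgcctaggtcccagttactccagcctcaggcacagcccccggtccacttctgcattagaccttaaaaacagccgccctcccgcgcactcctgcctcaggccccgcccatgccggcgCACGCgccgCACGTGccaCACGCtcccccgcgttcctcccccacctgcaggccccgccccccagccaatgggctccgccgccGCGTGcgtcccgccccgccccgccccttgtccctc
Pgk1 (chrX:106186850-106187099, plus strand): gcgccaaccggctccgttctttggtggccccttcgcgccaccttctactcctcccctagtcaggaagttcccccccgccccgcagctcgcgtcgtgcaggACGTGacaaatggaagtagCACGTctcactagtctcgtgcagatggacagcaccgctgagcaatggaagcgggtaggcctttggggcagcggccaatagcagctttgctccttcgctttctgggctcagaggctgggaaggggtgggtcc
Ldha (chr7:46845554-46845803, plus strand): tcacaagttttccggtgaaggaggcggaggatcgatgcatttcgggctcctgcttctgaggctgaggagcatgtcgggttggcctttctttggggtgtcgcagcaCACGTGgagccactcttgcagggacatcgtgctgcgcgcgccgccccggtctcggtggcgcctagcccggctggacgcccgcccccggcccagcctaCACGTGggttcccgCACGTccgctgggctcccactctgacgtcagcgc
Both strands of the palindrome CACGTG count as an ACGTG, and it appears once in the Bnip3 window and 2 times in the Ldha window. RefSeq listed 17 start sites for the 10 genes. A core of either kind was present in at least 1 window of each of the 10 genes, against 41.5% of 27025 genes with windows. The ACGTG form was present for 7 of the 10 genes, against 18.5% of those genes, and Pdk1, Eno1 and Adm had only the GCGTG form. For Vegfa, Pdk1 and Aldoa 1 window each held neither core. The Vegfa window without a core (46032378 to 46032627) was the one before the 5′ end of the annotated gene. Its cores lay in a window inside the gene (46025164 to 46025413), so the shares do not place a core at the outermost Vegfa start. All windows of Aldoa and Ldha also lay inside the annotated genes. These shares count a gene with a core in any window, so a gene with more windows has more chances. Counted by window, ACGTG was present in 8 of the 17, against 16.6% of 32851 windows. The 10 genes are known for their response to HIF, so these shares describe the set and are no test of it.

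Library totals ran from 4192021 to 16064644 counts, and wild-type male 2, the Setd2SRI/wt male and Setd2SRI/wt female 1 were the 3 shallowest, at 4192021, 5538908 and 6580814. Levels are given as CPM, the normalised read count after TMM scaling of library size, or as CPM per kb of exonic sequence where genes are compared with each other. Neuron markers summed to between 6157 and 7730 CPM in every library, so the labelled tissue had its defining transcripts. Among them Snap25 had 1875 to 2760 CPM and Tubb3 178 to 268.8 CPM. Among astrocyte markers Slc1a2 had 2471 to 3360 CPM and Fabp7 18.2 to 44.0 CPM. The postnatal day is that of the labels and was not tested against these levels. Red blood cell markers summed to 78.3 to 125.9 CPM in wild type and 40.4 to 114 CPM in Setd2SRI/wt. Skeletal muscle markers, a tissue rich in Aldoa, summed to 9.52 to 12.9 CPM and 11.2 to 15.5 CPM. Pituitary markers stood at 29.8 CPM in wild-type female 2 and 14.3 CPM in Setd2SRI/wt female 1, against 3.20 to 5.24 CPM in the other 5 libraries. Setd2 itself lay between 80.1 and 115.6 CPM, with overlapping genotypes, and a missense allele need not change its mRNA level.

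The genes spanned a wide range of abundance. Per kb, Aldoa was the most abundant at 372 ± 43.9 CPM per kb (SD, n = 7) and ranked 35 among 16709 genes tested. Pgk1 followed at 110.6 ± 10.8 CPM per kb, Eno1 at 81.7 ± 7.25, Ldha at 57.9 ± 7.76, Bnip3 at 28.5 ± 2.64 and Vegfa at 20.0 ± 1.29 CPM per kb. Pdk1 stood at 7.82 ± 0.955, Egln3 at 3.16 ± 0.688, Adm at 0.997 ± 0.272 and Hk2 at 0.715 ± 0.0735 CPM per kb. Each neighbour in this order kept its place in all 7 libraries except Adm, which was above Hk2 in 5 of 7. The ranges of Pgk1 and Eno1 and those of Adm and Hk2 overlapped, and no other neighbours did. The length used joins all annotated exons of a gene, 5379 bases for Eno1 and 2244 for Pgk1, and is the same for every library. By CPM Eno1 (mean 439.4, n = 7) stood above Pgk1 (248.2), so their order per kb comes from the annotated lengths. Hk2, which encodes an inducible hexokinase, ranked 14379 of the 16709 genes, while Pgk1, Eno1 and Ldha ranked 231, 375 and 608.

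Genotype was compared first, as the study asked what the heterozygous allele does to gene expression in the newborn brain. None of the 11 rows passed edgeR's quasi-likelihood test after Benjamini-Hochberg adjustment over 16709 genes (0 higher, 0 lower), and limma-voom also called 0 of 11. DESeq2 called 0 of the 9 rows to which it gave an adjusted p, and gave none to Adm and the second Aldoa row. Across all genes the test called 3 (0.0180%), Slc17a6, Ret and Robo3. At an unadjusted p under 0.05, 1 of the 11 rows was reached, Pdk1, against 8.98% of all genes. The median log2 fold change of the 11 rows was 0.08, with 8 above 0 and 3 below. Over all genes tested the median was 0.01, with 51.5% above 0 and 48.5% below.

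**Figure D1:**
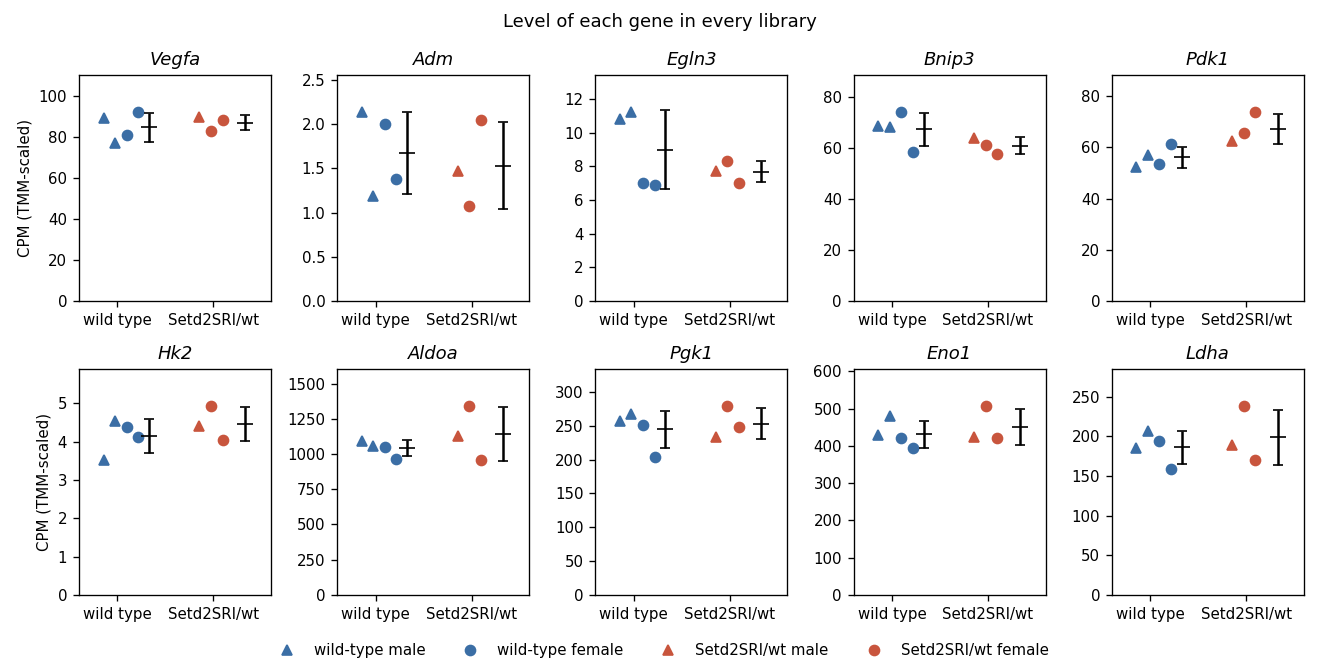
CPM of the 10 genes in each of the 7 libraries, by genotype (colour) and sex (triangles males, circles females), with the mean and SD of each genotype as black bars; every axis starts at 0. Pdk1 is the panel in which all 3 Setd2SRI/wt points, 62.5 to 73.6 CPM, lie above all 4 wild-type points, 52.3 to 61.4 CPM.

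Pdk1 encodes the kinase that switches off pyruvate dehydrogenase and so keeps pyruvate out of the citric acid cycle. The gene lies on chromosome 2 of mm10, plus strand, from 71873224 to 71903858. It had 52.3 and 57.1 CPM in wild-type males 1 and 2, and 53.3 and 61.4 CPM in wild-type females 1 and 2. It had 62.5 CPM in the Setd2SRI/wt male, and 65.5 and 73.6 CPM in Setd2SRI/wt females 1 and 2. All mutant libraries were above all wild-type ones, by as little as 62.5 against 61.4 CPM. Such a separation upward was found in 3.81% of all genes tested, and one in either direction in 7.92%; Pdk1 was the 1 row of the 11 with either. The log2 fold change of Pdk1 was 0.25 ± 0.10 (SE), with a 95% interval of 1.02-fold to 1.39-fold and an adjusted p of 0.466 in edgeR, so the difference failed the correction. Over 19 alternatives it lay between 0.18 and 0.33, with adjusted p-values from 0.222 to 1. As the groups did not overlap, leaving out libraries could hardly have changed the sign of this difference.

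Among the secreted signals, Vegfa, the growth factor that attracts blood vessels, had 89.3, 77.1, 80.9 and 92.0 CPM in wild-type male 1, male 2, female 1 and female 2. The mutants had 90 CPM (male), 82.8 (female 1) and 88.3 CPM (female 2), all within the wild-type range. The gene lies on chromosome 17, minus strand, from 46016993 to 46032369. Its log2 fold change was 0.03 ± 0.10 (SE, edgeR adjusted p = 0.964), with a 95% interval from 0.879-fold to 1.19-fold. It varied least of the 10 genes between libraries, with a coefficient of variation of 6.45% over the 7 libraries. Adm, the gene of the vasodilator peptide adrenomedullin, lies on chromosome 7, plus strand, from 110627661 to 110629820. It had 5 to 34 counts per library and 1.08 to 2.13 CPM, with the groups overlapping. At that depth its interval was wide, from 0.544-fold to 1.56-fold (log2 fold change -0.12 ± 0.36, SE, edgeR adjusted p = 0.962).

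Egln3 encodes a prolyl hydroxylase that HIF itself induces, and so stands for the feedback arm. It lies on chromosome 12, minus strand, from 54178981 to 54203860. It had 10.8 and 11.2 CPM in the wild-type males and 7.0 and 6.88 CPM in the wild-type females. The Setd2SRI/wt male had 7.70 CPM, and the mutant females 8.29 and 7.03 CPM. The wild-type males were the 2 highest libraries, and the mutant male lay among the females. Between genotypes the log2 fold change was -0.10 ± 0.19 (SE, edgeR adjusted p = 0.941), with an interval from 0.707-fold to 1.24-fold.

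Bnip3, a mitophagy receptor of the outer mitochondrial membrane, had 68.6, 68.1, 73.9 and 58.3 CPM in the wild-type libraries in the order above. It had 64.0, 61.1 and 57.7 CPM in the mutant male, female 1 and female 2. Every wild-type library but female 2 was above all the mutants, and wild-type female 2 lay among them. The log2 fold change was -0.13 ± 0.11 (SE, edgeR adjusted p = 0.808), with an interval from 0.777-fold to 1.07-fold, and it was below 0 in each of 19 alternatives. Bnip3 lies on chromosome 7, minus strand, from 138890836 to 138909519, and its exons share 504 bases with Gm45507 on the opposite strand. Gm45507 had 0 counts over all libraries, against 4929 for Bnip3. The strand setting of the counting is not given, so this cannot show whether reads in the shared bases were left out of both genes.

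Of the glycolytic enzymes, Hk2 had 19 to 70 counts per library, and its levels of 3.51 to 4.52 CPM (wild type) and 4.03 to 4.91 CPM (mutants) overlapped. Its log2 fold change was 0.10 ± 0.23 (SE, edgeR adjusted p = 0.952), with an interval from 0.764-fold to 1.5-fold. Hk2 lies on chromosome 6, minus strand, from 82725025 to 82774454. Aldoa, the gene of the aldolase that splits the phosphorylated sugar, lies on chromosome 7, minus strand, from 126795234 to 126800751. It had 1089, 1060, 1053 and 962 CPM in wild type, against 1125, 1337 and 957.8 CPM in the mutant male, female 1 and female 2. Setd2SRI/wt female 1 was the highest and Setd2SRI/wt female 2 the lowest of all 7 libraries, and the mutants spread more widely (SD 189.9 CPM) than the wild types (SD 55.0 CPM). The log2 fold change of Aldoa was 0.14 ± 0.12 (SE, edgeR adjusted p = 0.825). Fam57b, on the opposite strand, shares 25 exonic bases with Aldoa and had 4169 counts over all libraries against 80318. Whether reads in those bases were counted is likewise not known. The second Aldoa row, a gene model just upstream on the same strand (126800790 to 126809108), had 3 to 21 counts per library and a log2 fold change of 0.65 ± 0.48 (SE, edgeR adjusted p = 0.779).

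Pgk1 (chromosome X, plus strand, 106187100 to 106203699), the gene of the first ATP-forming step, had 256.6, 266.8, 250.9 and 203.7 CPM in wild type, against 233.2, 278.5 and 248 CPM in the mutants. Eno1 (chromosome 4, plus strand, 150236721 to 150248879), encoding enolase, had 428.8, 480.6, 419.6 and 394.2 CPM against 424.9, 505.4 and 422 CPM. Ldha (chromosome 7, plus strand, 46841475 to 46855627), encoding the lactate dehydrogenase subunit that favours lactate formation, had 184.8, 206.8, 194.6 and 158.5 CPM against 189, 237.8 and 170.9 CPM. For all 3 genes the highest library was Setd2SRI/wt female 1 and the lowest wild-type female 2, and the genotypes overlapped. Their log2 fold changes were 0.06, 0.08 and 0.11 with edgeR adjusted p-values of 0.936, 0.917 and 0.883. The 95% intervals ended at 1.24-fold for Pgk1 and Eno1, 1.30-fold for Ldha and 1.31-fold for Aldoa. Without Setd2SRI/wt female 1 the log2 fold changes of Aldoa, Pgk1, Eno1 and Ldha were -0.0043, -0.016, -0.021 and -0.048. Near copies elsewhere in the genome, of at least 90% identity over 300 bases, had between 0.00747% (Aldoa) and 0.674% (Ldha) of the counts of the gene itself, with 0.69% for Bnip3. The handling of multiply mapped reads is not given. These shares therefore cannot show whether reads common to a gene and its copies were left out of both.

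**Figure D2:**
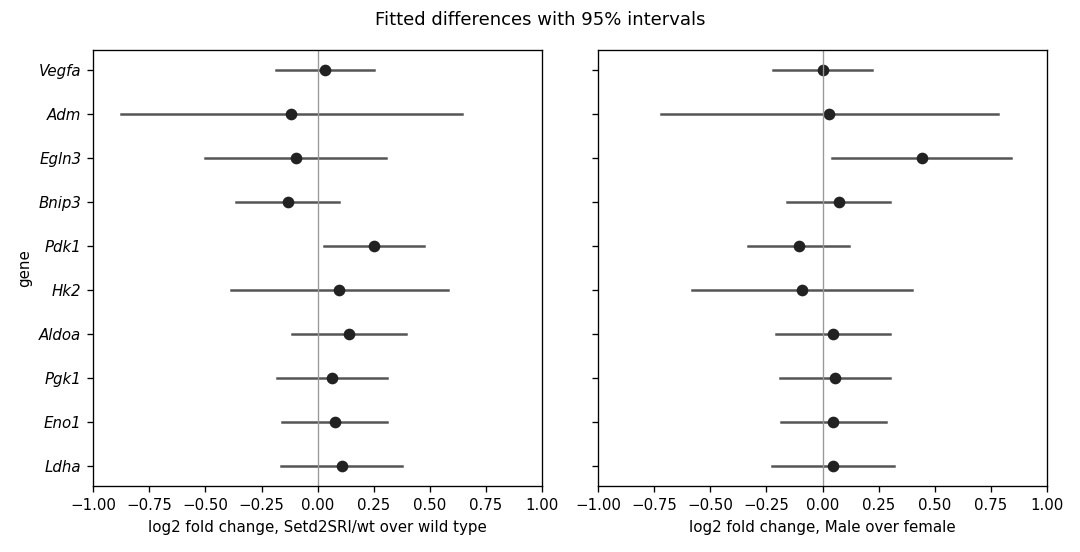
Log2 fold change (points) and 95% interval (lines) of the 10 genes for genotype (left) and sex (right), from the same edgeR fit; the second Aldoa row is left out. For genotype the Pdk1 interval alone stays above 0, and for sex the Egln3 interval alone does; neither gene passed after adjustment over all genes.

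Sex was compared in the same fit. None of the 11 rows passed (edgeR), against 0.0479% of all genes, and DESeq2 and limma-voom also called 0. At an unadjusted p under 0.05 there was 1 row, Egln3, higher in males, against 4.69% of all genes (2.25% higher and 2.44% lower in males). The log2 fold change of males over females was above 0 for 8 rows and below 0 for 3, against 49.3% and 50.7% of all genes. Egln3 had 9.89 ± 1.91 CPM in males (SD, n = 3) and 7.30 ± 0.663 CPM in females (SD, n = 4). The log2 fold change of Egln3 was 0.44 ± 0.19 (SE) and failed the correction (adjusted p = 0.998 by edgeR). Its genotype-by-sex term was -0.63 ± 0.37 (SE, unadjusted p = 0.112, adjusted p = 0.999 by edgeR) and rests on a single mutant male. X-linked Pgk1 had 252.2 ± 17.3 CPM in males and 245.3 ± 30.9 CPM in females, and its log2 fold change was 0.06 ± 0.12 (SE, edgeR adjusted p = 0.998). The product of genotype and sex was called by edgeR for 0 of the 11 rows and 0 of all 16709 genes, of which 3.27% had an unadjusted p under 0.05 (1.57% above 0 and 1.71% below); no row of the 11 did. It was above 0 for 4 rows and below 0 for 7, against 49.8% and 50.2% of all genes.

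**Figure D3:**
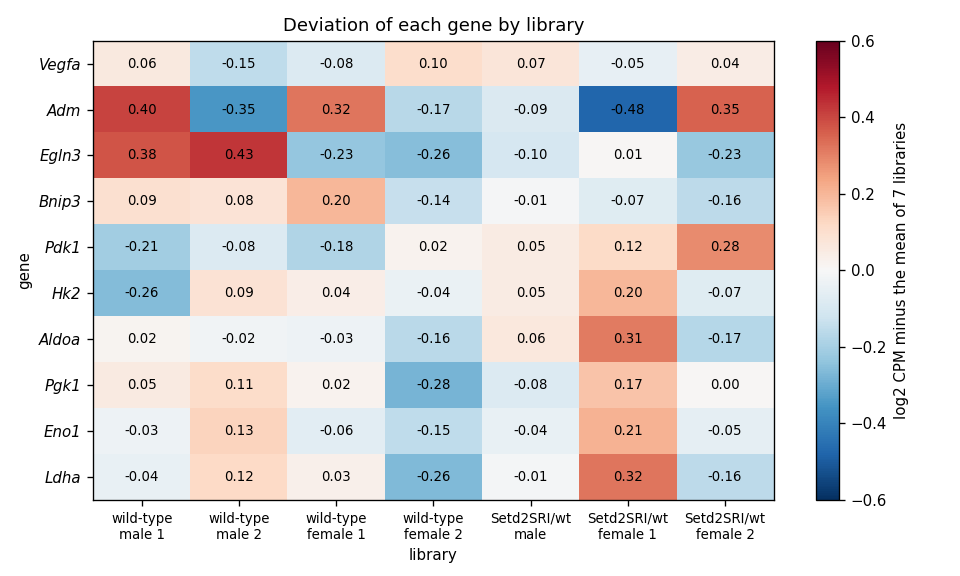
Log2 CPM of each gene in each library minus the gene's mean over the 7 libraries, with red above and blue below the mean. The columns of Setd2SRI/wt female 1 (0.17 to 0.32 for Aldoa, Pgk1, Eno1 and Ldha) and wild-type female 2 (-0.15 to -0.28 for the same genes) differ in sign for these 4 genes, and for Aldoa Setd2SRI/wt female 2 is as low (-0.17).

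The libraries were then compared as individual animals. Setd2SRI/wt female 1 was the highest library for 5 of the 10 genes (Hk2, Aldoa, Pgk1, Eno1 and Ldha), and wild-type female 2 the lowest for 4 (Egln3, Pgk1, Eno1 and Ldha). Across the 45 pairs of genes, Pearson's r over the 7 libraries ran from -0.87 to 0.92, with 24 pairs above 0. The strongest pair was Ldha and Eno1, with r = 0.92 (exact permutation p = 0.00357, adjusted p = 0.147 over 45 pairs) and Spearman's rho = 0.75 (exact permutation p = 0.0663, adjusted p = 0.271). It gave r = 0.71 without the 2 libraries farthest from the Ldha median, wild-type female 2 and Setd2SRI/wt female 1. Ldha and Aldoa had r = 0.89 (exact permutation p = 0.00972, adjusted p = 0.147) and rho = 0.68 (exact permutation p = 0.11, adjusted p = 0.411), and r = 0.56 without the same libraries. Bnip3 and Pdk1 ran in opposite directions, with r = -0.87 (exact permutation p = 0.0127, adjusted p = 0.147) and rho = -0.86 (exact permutation p = 0.0238, adjusted p = 0.256), and r = -0.77 without wild-type female 1 and Setd2SRI/wt female 2. No pair passed after adjustment, and 7 pairs had an unadjusted exact p under 0.05 for r.

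Vegfa gave negative values of r with each of the 5 enzymes. Its r with Ldha was -0.69 (exact permutation p = 0.0857, adjusted p = 0.417), with rho = -0.75 (exact permutation p = 0.0663, adjusted p = 0.271) and r = -0.91 without wild-type male 2 and wild-type female 1. Wild-type female 2, the lowest library for Pgk1, Eno1 and Ldha, and Setd2SRI/wt female 1, the highest for all 5 enzymes, had the most pituitary transcripts. The lowest library was another for Aldoa (Setd2SRI/wt female 2) and for Hk2 (wild-type male 1). The first pair lay at 6157 and 6523 CPM of neuron markers, the 2 lowest sums of the 7. Setd2SRI/wt female 1 also had the highest sums of skeletal muscle markers (15.5 CPM) and microglia markers (336 CPM). The part of these transcripts in the enzyme levels was not tested. Without wild-type female 2 and Setd2SRI/wt female 1 the log2 fold changes of Ldha, Pgk1, Eno1 and Aldoa were -0.11, -0.10, -0.051 and -0.022, and Pdk1 had 0.33 (adjusted p = 0.222 by edgeR). Outside the gene lists used here, the genes with the highest mean r with the 10 genes were Zfand3, Grn and Ndrg4, each with a mean r of 0.38 among 11977 genes of at least 5 CPM, and each had a negative r with at least 1 of the 10.

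The wider pathway was read from the same fit, in lists of other HIF regulators, other HIF targets, other glycolytic enzymes and neighbouring steps. No gene of these lists passed (edgeR, 0 higher and 0 lower in each). Of 18 HIF regulators, 0 reached an unadjusted p under 0.05, with a median log2 fold change of 0.02. Hif1a, which encodes an oxygen-sensitive alpha subunit, stood at 88.9 ± 7.07 CPM (SD, n = 4) in wild type, against 81.1 ± 5.48 CPM (SD, n = 3). Its log2 fold change was -0.16 ± 0.10 (SE, edgeR adjusted p = 0.696). Vhl, which encodes the ligase subunit that recognises it, had 37.3 ± 4.87 and 42.5 ± 2.18 CPM (0.22 ± 0.12, SE, edgeR adjusted p = 0.635). The coactivator gene Ep300 had a log2 fold change of -0.19.

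**Figure D4:**
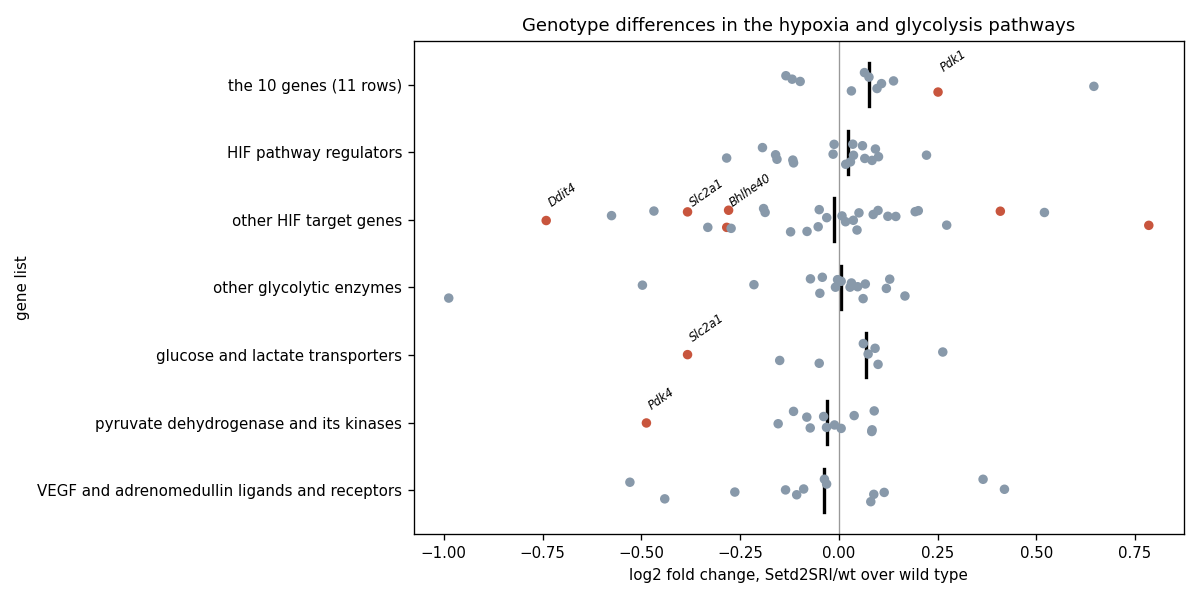
Log2 fold change of Setd2SRI/wt over wild type for each tested gene of the pathway lists; red points have an unadjusted p under 0.05, black lines are list medians, and the scatter within a row is only for legibility. The medians lie between -0.04 and 0.08. The genes with the smallest p among other HIF targets, Ddit4, Slc2a1 and Bhlhe40, lie below 0. That list as a whole has 15 genes above 0 and 15 below.

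Among the 30 of 31 HIF targets outside the set that were tested, 6 reached an unadjusted p under 0.05, 2 higher and 4 lower, against 3.90% and 5.09% of all genes, and the median log2 fold change was -0.01. Ddit4, a stress-induced inhibitor of mTOR signalling, had 45.3, 35.5, 33.3 and 36.4 CPM in wild-type male 1, male 2, female 1 and female 2. It had 15.8, 23.6 and 27.7 CPM in the mutant male, female 1 and female 2, below every wild-type library, as in 4.11% of all genes. Its log2 fold change was -0.74 ± 0.17 (SE, adjusted p = 0.162 by edgeR). DESeq2 called it (adjusted p = 0.0242), as did edgeR with no filter on low counts (4.55e-05) and without wild-type female 1 (0.0413). The limma-voom fit did not call it (adjusted p = 0.227). The settings that called Ddit4 called 64, 331 and 108 genes in all, in the same order, against 3 in the main fit. Without the Setd2SRI/wt male the log2 fold change of Ddit4 was -0.43 (adjusted p = 0.823 by edgeR). Its genotype-by-sex term was -0.95 and rests on a single mutant male.

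Slc2a1, the glucose transporter of the blood-brain barrier and glia, averaged 104 ± 14.7 CPM (SD, n = 4) in the controls, against 77.3 ± 15.3 CPM (SD, n = 3). The groups overlapped, since the Setd2SRI/wt male had 94.2 CPM and the wild-type females 95.2 and 92.7 CPM. Within each sex the mutants lay below the wild types. The wild-type males had 125.1 and 103.5 CPM, and the Setd2SRI/wt females 64.5 and 73.2 CPM. For genotype the log2 fold change of Slc2a1 was -0.38 ± 0.11 (SE, edgeR adjusted p = 0.21). For males over females it was 0.35 ± 0.10 (SE, edgeR adjusted p = 0.8825). Endothelial markers summed to 249 to 262.7 CPM in wild type and 222.6 to 317.5 CPM in the mutants, and 8 of these 10 markers had a log2 fold change above 0, with 0 at an unadjusted p under 0.05. Astrocyte markers summed to 4484 to 5219 CPM in the controls and 4808 to 5352 CPM in Setd2SRI/wt, of which Slc1a2, a glutamate transporter gene, held 2471 to 3360 CPM. Of the 8 astrocyte markers 6 had a log2 fold change below 0 (median -0.11), and 2 reached an unadjusted p under 0.05, both lower and neither passing the adjustment. Slc4a4, a bicarbonate transporter gene, had a log2 fold change of -0.35 (edgeR adjusted p = 0.221), with every mutant below every wild type, and Aqp4, the water channel gene of astrocyte endfeet, -0.30 (edgeR adjusted p = 0.464). The part of astrocyte transcripts in the Slc2a1 level was not tested. In bulk tissue, fewer cells of a type and less RNA per cell cannot be told apart. Bhlhe40, a transcriptional repressor gene, had a log2 fold change of -0.28 ± 0.11 (SE, edgeR adjusted p = 0.4).

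Of 17 tested glycolytic enzyme genes outside the set, 0 reached an unadjusted p under 0.05, and the median log2 fold change was 0.01. Hk3 and Pfkl, a hexokinase and a phosphofructokinase gene, had log2 fold changes of -0.50 and 0.13. Among 8 transporter genes Slc2a1 was the 1 with an unadjusted p under 0.05, against 8.98% of all genes. The neuronal glucose transporter Slc2a3 (137 ± 9.20 and 147 ± 8.66 CPM) and the lactate transporter Slc16a1 had log2 fold changes of 0.10 and -0.15.

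Pdk1 was set beside the other genes of its step. Of 13 genes of pyruvate dehydrogenase, its kinases and phosphatases and the pyruvate carrier, 1 reached an unadjusted p under 0.05, a share near the 8.98% of all genes. This was Pdk4, the kinase induced by fasting and glucocorticoids, with 23.3, 20.5, 17.6 and 13.8 CPM in wild type against 12.7, 11.5 and 13.6 CPM in Setd2SRI/wt. Its mutants lay below all wild types, as in 4.11% of all genes, with a log2 fold change of -0.49 ± 0.17 (SE; edgeR gave an adjusted p of 0.351). The carrier subunit gene Mpc1 and the enzyme subunit gene Pdhb had log2 fold changes of -0.15 and 0.08. Among 13 tested ligands and receptors of the VEGF and adrenomedullin systems 0 reached an unadjusted p under 0.05. The main VEGF receptor gene Kdr averaged 11.45 ± 2.63 CPM (SD, n = 4) in the controls, against 14.9 ± 1.09 CPM (SD, n = 3). Its log2 fold change was 0.37 ± 0.18 (SE, edgeR adjusted p = 0.602), and those of the receptor genes Nrp2 and Flt4 were -0.26 and -0.44.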

How the data were processed

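RNA of 7 newborn brains was measured with stranded, ribosome-depleted libraries from 100 ng of total RNA and read as pairs of 76 bases, per the labels' protocols. The authors deposited raw gene counts, and the submitters' processing notes name mm10 and, among the tools, HISAT2, Trim Galore, FastQC, edgeR and featureCounts; versions, strand setting and the handling of multiply mapped reads are not given in the sources used here. All 55536 identifiers and symbols matched GENCODE mouse release 21, which gave coordinates, overlaps and exonic lengths. The column of the Setd2SRI/wt male has a number its label lacks and was matched by genotype and sex.

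Counts were filtered with filterByExpr by genotype, scaled by TMM, and compared (two-sided) in edgeR 4.0.16 under R 4.3.3, by its quasi-likelihood method, with genotype and sex as terms; a further fit added their product. P-values were adjusted by Benjamini-Hochberg over 16709 genes and called under 0.05. The SE is the absolute log2 fold change over the square root of F, and restates that test. CPM uses the filtered library size. Correlations used log2 CPM (prior count 2) and all 5040 pairings. Motifs were searched in RefSeq windows of 250 bases. The fits were tested on simulated data. Alternatives used DESeq2 1.42.0 and limma 3.58.1, among others. Named genes were the 10 genes, Setd2, all genes called for genotype, the 3 of smallest p in each pathway list, and the 3 most like the set; a few values that the rule names are not reported here. The genes and lists were chosen with earlier results of these data known. Figures were drawn with matplotlib 3.10.9.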

Additional observations from a re-analysis of the deposited data

How the results depend on the processing

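The count of 0 called rows among the 10 genes did not change under any alternative run: 19 for genotype, 18 for sex and 6 for their product; DESeq2 gave no adjusted p for genotype to Adm and the second Aldoa row. Over all genes the genotype count of 3 became 1 with limma-voom, with total counts and with genes kept from a mean of 1 CPM, 331 with no filter, 64 with DESeq2, 5 at an adjusted p under 0.1, 0 with no sex term and 57 without the 2 libraries with the most pituitary transcripts (chosen after seeing the data), and it ran from 0 to 108 with 1 library left out. That count was 0 when wild-type male 1, male 2 or female 2 was left out, and 108 on leaving out wild-type female 1. It was 1 when the Setd2SRI/wt male or female 2 was left out and 11 on leaving out Setd2SRI/wt female 1. The sex count of 8 became 136 with no filter and 15 in wild type alone, and ran from 3 to 16 with 1 library left out; the product count of 0 ran from 0 to 4. The cause was not tested. Females alone gave 1 gene without and 80 with a replicate block. Deviations from the genotype means correlated at -0.06 between same-numbered females. With 2 females per genotype both numbers give this same value, so it cannot show whether the female numbers carry a pairing.

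Of 206 genotype log2 fold changes of the 11 rows under the alternatives 21 changed sign, and of 195 log2 fold changes for sex 24, all of differences that were not called. For genotype, the log2 fold change of Vegfa was -0.0019 with total counts. In females alone Vegfa and Egln3 were -0.015 and 0.13, and with the replicate block -0.015 and 0.13. Without the 2 libraries with the most pituitary transcripts, Ldha, Pgk1, Eno1 and Aldoa were -0.11, -0.10, -0.051 and -0.022. With 1 library left out the ranges were -0.014 to 0.096 for Vegfa, -0.048 to 0.21 for Ldha, -0.042 to 0.21 for Pgk1, -0.021 to 0.19 for Eno1, -0.0043 to 0.23 for Aldoa, -0.49 to 0.057 for Adm, -0.21 to 0.13 for Egln3 and -0.0050 to 0.16 for Pdhb. For sex, Vegfa was 0.0010 with DESeq2 size factors, 0.0014 with DESeq2, 0.0029 with limma-voom and 0.043 without the libraries with the most pituitary transcripts, where Bnip3, Pgk1 and Adm were -0.0070, -0.0037 and -0.22. Adm was -0.0017 with DESeq2, Hk2 was 0.23 after thinning and the second Aldoa row was -0.11 in wild type alone. With 1 library left out, sex values ran from -0.047 to 0.071 for Vegfa, -0.041 to 0.15 for Ldha, -0.046 to 0.20 for Pgk1, -0.013 to 0.16 for Eno1, -0.023 to 0.14 for Aldoa, -0.11 to 0.57 for its second row, -0.32 to 0.18 for Adm and -0.15 to 0.039 for Hk2. Counts as low as 5 for Adm and 19 for Hk2 in 1 library limit what can be said of them.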
